A study of Homo sapiens with 17 samples.

Results

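NPC1, CLCN7 and ASAH1 are 3 genes of the lysosome, the acidic compartment in which cells break down lipids, proteins and sugars. Their probe sets were found by gene symbol on an expression array, and each gene had 1 probe set among the 17687 genes measured. The genes were chosen by measured values of these same arrays: NPC1 (Entrez 4864) and CLCN7 (Entrez 1186) on their higher signal after Maraviroc at its IC50, and ASAH1 (Entrez 427) on a comparison that the sources used here do not name. Their levels, and every difference that rests on the Maraviroc IC50 arrays, are therefore descriptions without a test, as are all values of ASAH1.

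The arrays measured RNA of human breast cell lines seeded for 24 h and then treated for 48 h. MDA-MB-231, a triple-negative breast cancer line with a mesenchymal phenotype, was given Maraviroc at IC20 or IC50, its solvent ethanol, DZH_2 at IC20 or IC50, or its solvent DMSO, with 2 arrays for each of these 6 groups, or was left untreated (1 array). MCF10 is the name of a non-tumorigenic mammary epithelial line. Cells with this title were given DZH_2 at IC20 or IC50 or DMSO, or were left untreated, with 1 array each. Maraviroc is an antiviral drug used against HIV and DZH_2 is known here by its code name alone. At IC20 a compound inhibits by 20% and at IC50 by 50%; the molar doses were not used here. No label ties the replicates to separate cultures, and p-values therefore cover the spread between arrays only, which may be technical. No group carried a genetic change by design.

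The 2 Maraviroc IC50 arrays stood apart. Their replicates correlated at 0.960 over genes, against 0.984 to 0.991 in the other 5 replicated groups, and the interquartile range of their log2 signal was 4.05 and 4.07, against 4.21 to 4.65 on the other MDA-MB-231 arrays. The 4 arrays titled MCF10 carry MDA-MB-231 in their cell line field; the titles were followed. In DMSO these arrays had S100A2 at 14.78, ITGB4 at 15.13 and KRT5 at 8.92. MDA-MB-231 in DMSO had them at 6.64, 10.46 and 4.46. ITGA6 went the other way (8.42 in MCF10 against 12.90). Over DMSO and untreated cells, 4 of 15 measured epithelial and basal markers were higher by at least 1 in MCF10 and 3 lower. Of these 15, 6 lay under the negative controls in MCF10 in DMSO (6.21, the 75th percentile of those probe sets). In MDA-MB-231 in DMSO 7 did (5.87). The 6 in MCF10 included CDH1 (4.51), EPCAM (4.87) and ESRP1 (5.11), while KRT8 (14.07), KRT18 (12.74) and CLDN7 (9.21) lay above. Of 18 mesenchymal markers, 8 were higher by at least 1 in MCF10 over DMSO and untreated cells and 5 lower. In DMSO, FN1 stood at 17.60, MMP2 at 13.79 and TGFBI at 18.19, against 9.45, 4.55 and 9.99 in MDA-MB-231. ZEB1 stood at 6.59 against 12.41. The markers thus set the 2 sets of arrays apart without settling the identity of the cells titled MCF10. Here and below, MCF10 stands for that title alone. Of 8 measured leukocyte markers, 5 lay under the negative controls (5.87) in MDA-MB-231 in DMSO, with CD3D at 3.95 and MS4A1 at 3.94, while CD68, a lysosomal membrane protein, stood at 13.80.

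NPC1 is a membrane protein of late endosomes and lysosomes that passes cholesterol, freed from LDL by the acid lipase LIPA, out of the lumen; its loss causes Niemann-Pick disease type C. CLCN7 exchanges chloride for protons across the lysosomal membrane, works with the subunit OSTM1, and is needed for bone resorption by osteoclasts. ASAH1 is acid ceramidase, which splits ceramide into sphingosine and a fatty acid inside the lysosome; its loss causes Farber disease. Many lysosomal genes are controlled by the transcription factors TFEB and TFE3, which bind a motif with the core CACGTG, and NPC1 is also known as a gene of cholesterol homeostasis.

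Because the genes were high together on the same arrays, their promoters are shown for that motif. RefSeq promoter sequences were found for 2 of the 3 members, NPC1 and CLCN7. The 250 bases before each annotated start are printed 5′ to 3′ on the gene's strand (GRCh38.p14, chr16:1475029-1475278 for CLCN7 and chr18:23586507-23586756 for NPC1, both on the minus strand), in lower case with CACGTG, which reads the same on both strands, in capitals.
CLCN7: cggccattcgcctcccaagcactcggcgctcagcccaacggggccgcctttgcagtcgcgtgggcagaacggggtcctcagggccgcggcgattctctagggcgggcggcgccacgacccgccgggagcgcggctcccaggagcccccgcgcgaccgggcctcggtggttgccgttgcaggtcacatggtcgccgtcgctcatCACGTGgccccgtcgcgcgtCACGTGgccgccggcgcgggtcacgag
NPC1: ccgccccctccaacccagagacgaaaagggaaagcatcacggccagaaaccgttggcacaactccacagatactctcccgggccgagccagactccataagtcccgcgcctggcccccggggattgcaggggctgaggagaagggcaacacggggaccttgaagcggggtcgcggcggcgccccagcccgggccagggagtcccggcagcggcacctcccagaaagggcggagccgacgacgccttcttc
CLCN7 held CACGTG 2 times, starting 47 and 27 bases before the start, and NPC1 did not hold it in this window. The motif was present in 1772 of 27305 RefSeq promoters of this length (6.49%) and in 1097 of the 14250 found for measured genes (7.7%). It was in 24 of the 138 promoters found for 167 other measured genes of lysosomal and ceramide lists (17.4%). TCACGTG, the same core preceded by T and searched on both strands, lies within the CLCN7 matches. This longer string was in 3.38% of all promoters, 4.24% of those of measured genes and 15.9% of the listed ones. GC content was 75.2% for CLCN7 and 68.4% for NPC1, with a median of 58.0% over all promoters, and the part of base composition in these shares was not tested. A match is a string of letters and shows no binding.

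On the log2 scale of the deposited values, NPC1 stood at 11.16 in untreated MDA-MB-231 cells, at 11.15 and 12.06 in DMSO and at 11.01 and 11.18 in ethanol. It stood at 13.10 and 14.33 with DZH_2 IC20 and at 13.46 and 14.34 with DZH_2 IC50. Maraviroc gave 12.97 and 11.98 at IC20 and 14.13 and 14.68 at IC50. All 4 DZH_2 arrays and both Maraviroc IC50 arrays lay above all 5 control arrays (DMSO, ethanol and untreated), while the Maraviroc IC20 arrays overlapped with the higher DMSO array. In order of group means, Maraviroc IC50 (14.41) was followed by DZH_2 IC50 (13.90), DZH_2 IC20 (13.71), Maraviroc IC20 (12.48), DMSO (11.61), untreated cells (11.16) and ethanol (11.09). The arrays of the 3 highest groups overlapped with one another, as did those of Maraviroc IC20 and DMSO, and those of DMSO, untreated cells and ethanol, so these neighbours did not differ beyond their spread. The lower DZH_2 IC20 array lay just above the higher Maraviroc IC20 array. NPC1 had the widest replicates of the 3 genes in 5 of the 6 groups, with SDs up to 0.87 (DZH_2 IC20); Maraviroc IC50 was the exception. These are RNA levels of whole cultures, in which fewer cells of a type and less RNA per cell cannot be told apart.

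CLCN7 had a different order. Its log2 signal was 9.36 in untreated cells, 9.27 and 8.92 in DMSO, and 9.77 and 9.66 in ethanol. DZH_2 gave 10.01 and 10.12 at IC20 and 10.53 and 10.24 at IC50. Maraviroc gave 10.20 and 10.06 at IC20 and 12.22 and 13.14 at IC50. The Maraviroc IC50 arrays (mean 12.68) were the highest by a wide margin, and DZH_2 IC50 (10.39), Maraviroc IC20 (10.13) and DZH_2 IC20 (10.06) followed close together. Maraviroc IC20 and DZH_2 IC20 overlapped, and the lower DZH_2 IC50 array exceeded the higher Maraviroc IC20 array by less than the SD of the DZH_2 IC50 replicates (0.21). Ethanol came next (9.71), then untreated cells, whose single array lay above the higher DMSO array by less than the SD in DMSO (mean 9.10, SD 0.25).

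ASAH1 was high with DZH_2 as well as with Maraviroc IC50. It stood at 9.94 in untreated cells, at 10.15 and 10.49 in DMSO and at 10.22 and 10.34 in ethanol. DZH_2 gave 11.58 and 11.74 at IC20 and 11.88 and 12.003 at IC50. Maraviroc gave 10.82 and 10.30 at IC20 and 11.20 and 12.42 at IC50, the widest pair of the gene (SD 0.86). The means of DZH_2 IC50 (11.94), Maraviroc IC50 (11.81) and DZH_2 IC20 (11.66) differed by less than that spread. Maraviroc IC20 (10.56), DMSO (10.32) and ethanol (10.28) overlapped as well, with untreated cells below them.

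Thus all 3 genes had the 4 DZH_2 arrays above the 5 control arrays, which held for 4.85% of all genes, and the 2 Maraviroc IC50 arrays above them, which held for 24.5%. At Maraviroc IC20, CLCN7 alone of the 3 had both arrays above the 5 controls (4.36% of all genes). In every group the means of the 3 genes were at least 3.23 above the 75th percentile of the negative controls, so none of these values lies at the floor of the array.

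**Figure D1:**
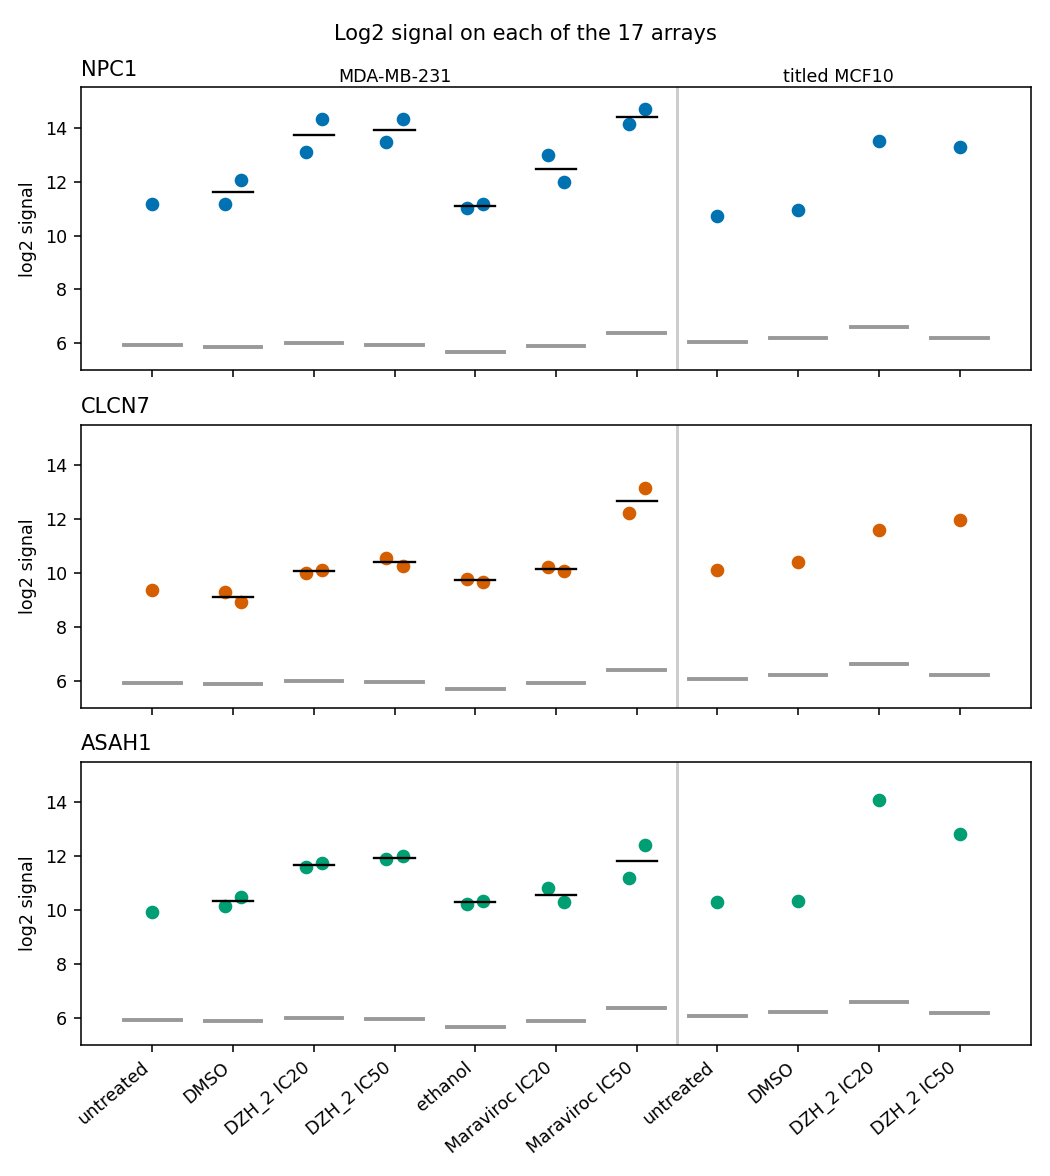
Log2 signal of NPC1, CLCN7 and ASAH1 on each of the 17 arrays by group; points are arrays, black lines are means of 2 arrays, and grey bars mark the negative controls' 75th percentile. All 3 genes are higher on the 4 DZH_2 arrays and the 2 Maraviroc IC50 arrays of MDA-MB-231 than on its 5 control arrays, and higher on both DZH_2 arrays titled MCF10 than on the untreated and DMSO ones.

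Set against DMSO, DZH_2 gave higher means of NPC1 at both doses. The log2 difference from DMSO was 2.11 ± 0.47 (SE, n = 2 arrays a group; 4.31-fold) at IC20 and 2.29 ± 0.47 (4.90-fold) at IC50, with standard errors from a limma fit over the 12 replicated MDA-MB-231 arrays. NPC1 rose at IC50 (adjusted p = 0.0373 over all genes by limma) and missed the threshold of 0.05 at IC20 (adjusted p = 0.0652). At IC50, 0.582% of all genes rose and 0.984% fell; at IC20, 0.435% rose and 0.435% fell. The call at IC50 was lost when any 1 of the 4 arrays was left out. Such a fit leaves 1 array in a group and loses calls over all genes too, so it cannot show that NPC1 depends on particular arrays. The difference of NPC1 then ran from 1.84 to 2.74. With both arrays of each group kept, its adjusted p by limma ranged from 0.00306 to 0.0374 over the other settings.

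CLCN7 moved less. Its DZH_2 IC20 difference from DMSO was 0.97 ± 0.31 (adjusted p = 0.185 by limma) and its IC50 difference 1.29 ± 0.31 (adjusted p = 0.0598); neither passed, although no DZH_2 array overlapped with a DMSO array. For ASAH1 the IC20 difference was 1.34 ± 0.36 (2.54-fold) and the IC50 difference 1.62 ± 0.36 (3.08-fold). The DZH_2 doses share the DMSO arrays, so their agreement is not independent. The step from DZH_2 IC20 to IC50 was 0.18 ± 0.47 for NPC1, 0.32 ± 0.31 for CLCN7 and 0.28 ± 0.36 for ASAH1, each smaller than its standard error or close to it. By limma 0 genes passed in that step (0% of all genes, 721 at an unadjusted p under 0.05).

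Against ethanol, Maraviroc at IC50 gave the largest differences of NPC1 and CLCN7 in the series, which is what these genes were chosen on. NPC1 was higher by 3.31 ± 0.47 (9.93-fold), CLCN7 by 2.97 ± 0.31 (7.82-fold) and ASAH1 by 1.52 ± 0.36 (2.88-fold). Leaving out 1 array at a time gave 3.04 to 3.59 for NPC1, 2.50 to 3.43 for CLCN7 and 0.91 to 2.13 for ASAH1, whose lower value came without Maraviroc IC50 replicate 2 and whose higher value came without replicate 1. Over all genes the median difference was 0.11 as deposited and 0.28 with each array centred on its median.

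At IC20, Maraviroc gave 1.38 ± 0.47 for NPC1 (2.61-fold), 0.41 ± 0.31 for CLCN7 and 0.28 ± 0.36 for ASAH1. NPC1 and CLCN7 each had an adjusted p of 1.00 by limma, as no gene passed in this comparison (0% of all genes, 309 at an unadjusted p under 0.05). The step from IC20 to IC50 of Maraviroc was 1.93 ± 0.47 for NPC1, 2.55 ± 0.31 for CLCN7 and 1.25 ± 0.36 for ASAH1. For ASAH1 this step was 0.64 without Maraviroc IC50 replicate 2 and 1.86 without replicate 1. NPC1 at IC20 was 0.89 above ethanol without Maraviroc IC20 replicate 1 and 1.88 without replicate 2, and ASAH1 was 0.01 and 0.54. Of the 3 genes, NPC1 thus had the highest mean difference from ethanol at IC20, though its higher ethanol array (11.18) and lower Maraviroc array (11.98) were closer to each other than the Maraviroc replicates were.

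DZH_2 and Maraviroc were set against each other at the same inhibition level, each relative to its own solvent, in 1 tested pairing (IC20) and 1 described pairing (IC50). At IC20, DZH_2 exceeded Maraviroc by 0.72 ± 0.67 for NPC1 (95% interval -0.73 to 2.18, adjusted p = 0.903 by limma), by 0.55 ± 0.43 for CLCN7 (-0.39 to 1.49, adjusted p = 0.869) and by 1.07 ± 0.50 for ASAH1 (-0.02 to 2.16). These intervals hold both no difference and differences of more than 1, so they do not show that the compounds act alike. The NPC1 value ran from 0.11 without DZH_2 IC20 replicate 2 to 1.34 without replicate 1; it was also 0.23 and 1.22 without Maraviroc IC20 replicate 2 or 1, and 0.27 and 1.17 without DMSO replicate 1 or 2. At IC50 the difference was -1.02 ± 0.67 for NPC1, -1.68 ± 0.43 for CLCN7 and 0.10 ± 0.50 for ASAH1, so CLCN7 was the member on which Maraviroc exceeded DZH_2 most. For ASAH1 this value was -0.51 without Maraviroc IC50 replicate 1 and 0.71 without replicate 2, so it had no settled direction. For NPC1 it was -0.57 without DMSO replicate 2, -0.58 without DZH_2 IC50 replicate 1 and -1.47 without DMSO replicate 1. Ethanol against DMSO gave -0.51 ± 0.47 for NPC1 (adjusted p = 0.875 by limma), 0.62 ± 0.31 for CLCN7 (adjusted p = 0.679) and -0.03 ± 0.36 for ASAH1; without DMSO replicate 2 the NPC1 value was -0.06 and without replicate 1 it was -0.96. At IC20 between compounds and between solvents, limma passed 0 genes (1273 and 1352 at an unadjusted p under 0.05).

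**Figure D2:**
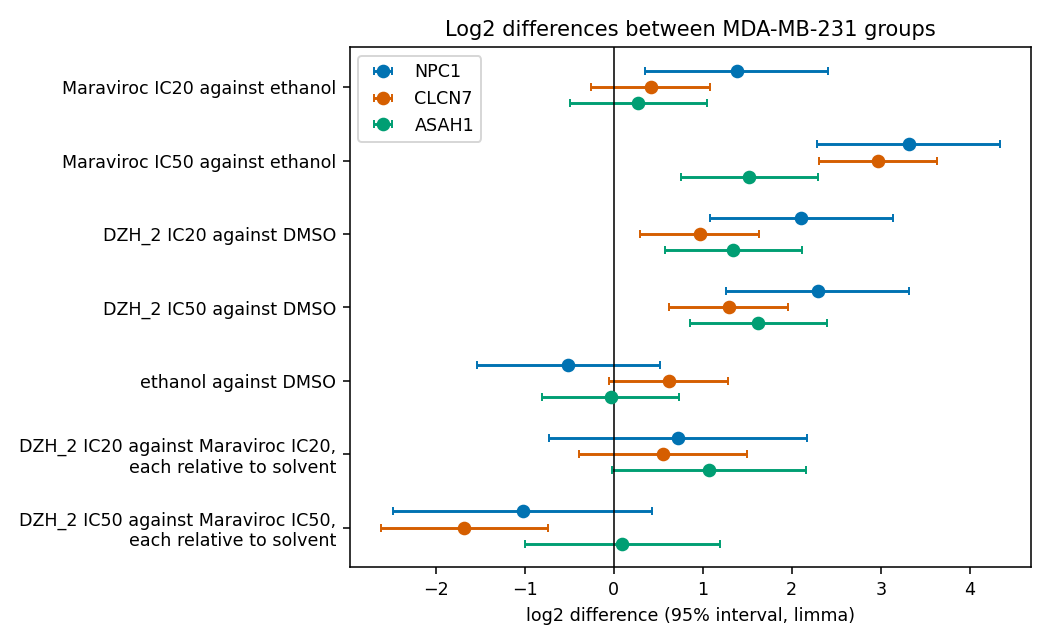
Log2 differences of NPC1, CLCN7 and ASAH1 between MDA-MB-231 groups, with 95% intervals from the limma fit over 12 arrays. NPC1 and CLCN7 lie farthest to the right for Maraviroc IC50 (3.31 and 2.97), while ASAH1 has like values for Maraviroc IC50 and both doses of DZH_2 (1.52, 1.34 and 1.62); intervals of values the genes were chosen on are descriptions.

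In the cells titled MCF10, all 3 genes were higher with DZH_2 at both doses. ASAH1 went from 10.29 untreated and 10.35 in DMSO to 14.09 at IC20 and 12.80 at IC50, which is 3.74 above DMSO (13.4-fold) and then 2.45 (5.47-fold). NPC1 went from 10.74 and 10.93 to 13.52 and 13.28, or 2.59 (6.02-fold) and 2.35 (5.11-fold) above DMSO. CLCN7 went from 10.12 and 10.39 to 11.57 and 11.97, or 1.18 and 1.57 above DMSO. All 3 thus exceeded DMSO by at least 1 at both doses, as 4.52% of all genes did, while 4.88% were lower by at least 1 at both. ASAH1 and NPC1 were higher at IC20 than at IC50 and CLCN7 the other way round; with 1 array a group none of this has a replicate check. The 75th percentile of the negative controls was 6.60 on the IC20 array and 6.05 to 6.21 on the other 3, and its part in the result was not tested.

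Set beside MDA-MB-231, the DZH_2 difference of NPC1 was close in both lines (2.59 and 2.35 against 2.11 and 2.29), that of CLCN7 was somewhat larger in MCF10 (1.18 and 1.57 against 0.97 and 1.29), and that of ASAH1 was larger there at both doses (3.74 and 2.45 against 1.34 and 1.62). These differences between lines were not tested. In control cells (DMSO and untreated), the arrays titled MCF10 were at -0.55 for NPC1, 1.03 for CLCN7 and 0.19 for ASAH1 relative to MDA-MB-231, and 2279 genes were higher by at least 1 and 4252 lower.

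The nearest partners of each gene did not all follow it. LIPA, which releases the cholesterol that NPC1 exports, was 1.37 ± 0.35 and 1.29 ± 0.35 above DMSO at DZH_2 IC20 and IC50 (adjusted p = 0.100 and 0.0905 by limma), 0.37 ± 0.35 above ethanol at Maraviroc IC50 (adjusted p = 0.490), and 1.72 and 2.02 above DMSO in MCF10. OSTM1, the subunit of CLCN7, was -0.24 ± 0.50 at Maraviroc IC50 (adjusted p = 0.776), where CLCN7 had its highest level, and 0.94 ± 0.50 and 0.78 ± 0.50 with DZH_2 (adjusted p = 0.509 and 0.507). On the MCF10 array in DMSO, OSTM1 stood at 4.83, under the negative controls, and at 6.33 with DZH_2 IC20, under the negative controls of that array too (6.60), and it stood above them only at IC50 (9.09).

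CLCN6, a late endosomal relative of CLCN7, rose by 1.94 ± 0.29 at Maraviroc IC50 (adjusted p = 3.7e-04 by limma) and by 1.47 ± 0.29 at DZH_2 IC20 (adjusted p = 0.0393), with 1.09 ± 0.29 at DZH_2 IC50 (adjusted p = 0.0844). PSAP, the precursor of the saposins that present sphingolipids to acid hydrolases such as ASAH1, rose by 1.72 ± 0.26 at Maraviroc IC50 (adjusted p = 4.2e-04) and by 1.26 ± 0.26 and 1.23 ± 0.26 with DZH_2 (adjusted p = 0.0485 and 0.0400). In MCF10, PSAP stood at -0.15 and 0.47 relative to DMSO, unlike ASAH1 with 3.74 and 2.45. SMPD1, the acid sphingomyelinase that makes ceramide, was 0.94 ± 0.44 at Maraviroc IC50 (adjusted p = 0.142), 1.19 ± 0.44 at DZH_2 IC20 (0.281) and 1.32 ± 0.44 at DZH_2 IC50 (0.164). NAAA, a relative of ASAH1 that hydrolyses N-acylethanolamines, was -0.04 ± 0.31 at Maraviroc IC50 (adjusted p = 0.95) and 0.82 ± 0.31 and 0.52 ± 0.31 with DZH_2 (0.292 and 0.463). NPC2 was not analysed here.

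Among the regulators, TFEB lay between 2.98 and 3.10 in all MDA-MB-231 groups, under the negative controls, so it was not above background. TFE3 was measured at 8.93 in DMSO and 9.39 in ethanol and differed by 0.61 ± 0.32 at Maraviroc IC50 (adjusted p = 0.187 by limma), 0.45 ± 0.32 at DZH_2 IC20 (0.678) and 0.59 ± 0.32 at DZH_2 IC50 (0.420). FLCN, a lysosomal regulator of mTORC1 and of TFEB and TFE3, rose by 2.59 ± 0.24 at Maraviroc IC50 (adjusted p = 1.4e-05) and was 1.08 ± 0.24 and 1.05 ± 0.24 above DMSO with DZH_2 (adjusted p = 0.0652 and 0.0523).

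Beyond these partners, 9 lists of lysosomal and ceramide genes held 189 genes other than the 3 members, 167 of them measured. The lists were chosen with earlier results of these data known. Shares of called genes in them, here and in MCF10, are therefore descriptions and no test of the lists. At Maraviroc IC50, 45 of the 167 rose (26.9%) and 14 fell (8.38%), where 12% of all genes rose and 15.0% fell, and their median difference was 0.37 against 0.11 over all genes. On the same arrays 9 of 18 mesenchymal markers fell (median -1.57) and 1 rose, and 5 of 15 epithelial and basal markers fell and 1 rose; their part in the result was not tested. With the 4 arrays compared alone, 27 of the 167 listed genes rose and 7 fell, while 2399 of all 17687 genes were called in both directions together. Of the 45, CLCN5 and the desaturase gene DEGS2 were under the negative controls in both groups, and of the 14, GRAMD1C and ZKSCAN3 were so at Maraviroc IC50; DEGS2 and ZKSCAN3 were named after their values were seen. With DZH_2, 7 rose at IC20 (4.19%, against 0.435% of all genes) and 8 at IC50 (4.79%, against 0.582%), and 0 fell at either dose (0.435% and 0.984% of all genes), with medians of 0.28 and 0.20 against -0.002 and 0.038 over all genes. The rises with DZH_2 were fewer at both doses when any 1 of the compared arrays was left out. Such a fit leaves 1 array in a group and lowers calls over all genes too, so it cannot show which arrays these counts rest on. The replicate SD over all genes of the Maraviroc IC50 arrays (0.546) exceeded that of the other groups (0.277 to 0.366). Without these arrays, 14 listed genes rose at IC20 and 15 at IC50. Calls over all genes, both directions together, also grew there, from 154 to 495 at IC20 and from 277 to 837 at IC50. Maraviroc IC20 gave 0 calls, 0% as for all genes, and a median of -0.01.

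The list of endolysosomal cholesterol handling, in which NPC1 belongs, was split at Maraviroc IC50: 5 of 19 measured genes rose and 6 fell (median -0.12). STARD3 and STARD4, sterol transfer proteins, rose by 1.81 ± 0.28 and 2.03 ± 0.39. TMEM97, the sigma-2 receptor, which is known to bind NPC1, fell by 3.48 ± 0.42 and the annexin gene ANXA6 fell by 2.76 ± 0.30 (adjusted p between 3.8e-05 and 0.0020 by limma over these 4 genes). The sterol transfer gene GRAMD1C also fell (adjusted p = 0.0015), from 7.52 in ethanol to 4.99, which is under the negative controls of that group (6.38), so the size of its fall was not measured. With DZH_2, TMEM97 stood at 0.43 ± 0.42 and 0.12 ± 0.42 in MDA-MB-231 and at 2.05 and 2.22 in MCF10. STARD4 rose at DZH_2 IC50 by 2.05 ± 0.39 (adjusted p = 0.0276), the 1 gene of this list that passed there, and 0 passed at IC20, where STARD4 was at 1.55 ± 0.39 (adjusted p = 0.0953).

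Of the patched-related and sterol-sensing list, DHCR7, the last enzyme of cholesterol synthesis, rose in all 3 of these comparisons (1.71 ± 0.36 at Maraviroc IC50, 3.40 ± 0.36 and 3.32 ± 0.36 with DZH_2, adjusted p = 0.0035, 0.0024 and 0.0032 by limma). The Hedgehog receptor gene PTCH1 fell at Maraviroc IC50 by 1.14 ± 0.36 (adjusted p = 0.0327), and none of the other 5 measured genes passed in any of the 3.

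Of 29 measured ion channels and transporters of the lysosome besides CLCN7, 9 rose (31%) and 1 fell (3.45%) at Maraviroc IC50 (median 0.83). With DZH_2, 3 rose at IC20 (10.3%) and 2 at IC50 (6.9%). At Maraviroc IC50 the 4 smallest p-values belonged to the calcium channel TPCN2 (1.95 ± 0.28), CLCN6, the lysophospholipid transporter SPNS1 (1.59 ± 0.27) and the amino acid transporter SLC66A1 (1.35 ± 0.29). The sialic acid exporter SLC17A5 rose in all 3 comparisons, by 1.13 ± 0.31 at Maraviroc IC50 and by 1.55 ± 0.31 and 2.13 ± 0.31 with DZH_2 (adjusted p = 0.0163, 0.0404 and 0.0086 by limma). SLC37A2, a sugar phosphate transporter, did so too, by 1.30 ± 0.40, 2.93 ± 0.40 and 3.31 ± 0.40 (adjusted p = 0.0273, 0.0080 and 0.0050). Within the CLC family, the 5 measured relatives of CLCN7 divided: CLCN6 rose at Maraviroc IC50, and CLCN3 and CLCN4 stood at -0.78 ± 0.47 and -0.44 ± 0.28 without passing. CLCN5 passed the test (adjusted p = 0.0431 by limma), but it was not above background in either group (6.20 and 5.21, beside negative controls at 6.38 and 5.67), and CLCN1 was not either.

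Around ASAH1, 3 of 9 measured genes of lysosomal sphingolipid breakdown rose at Maraviroc IC50 and 0 fell (median 0.94): PSAP, HEXA, a subunit of beta-hexosaminidase (1.64 ± 0.28), and the glucosylceramidase GBA2 (1.79 ± 0.36), which acts outside the lysosome. PSAP was the 1 gene of this list that passed with DZH_2. A further list held 30 measured genes of ceramide synthesis and turnover, mostly outside the lysosome and with NAAA among them. Of these, 9 rose (30%) and 1 fell (3.33%) at Maraviroc IC50 (median 0.31). ORMDL3, an inhibitor of the first step of ceramide synthesis, rose by 3.48 ± 0.32, SPHK1, which phosphorylates the sphingosine that ceramidases release, by 2.93 ± 0.29, and UGCG, which makes glucosylceramide from ceramide, by 2.61 ± 0.32 (adjusted p = 1.2e-05, 1.9e-05 and 9.6e-05 by limma). SPHK1 also rose at DZH_2 IC50 (1.47 ± 0.29, adjusted p = 0.0315) and was 1.27 ± 0.29 at IC20 (adjusted p = 0.0654), and it was 1.57 and 1.42 above DMSO in MCF10.

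Of 25 other lysosomal hydrolases measured, 9 rose (36%) and 1 fell (4%) at Maraviroc IC50 (median 0.42). The iduronidase IDUA, the peptidase TPP1 and the sulfatase IDS rose by 2.78 ± 0.40, 1.72 ± 0.32 and 1.71 ± 0.33, and the palmitoyl-protein thioesterase PPT1 fell by 2.03 ± 0.26 (adjusted p between 1.1e-04 and 0.0022 by limma). CTSD and LGMN, the proteases cathepsin D and legumain, were the 2 that rose with DZH_2, CTSD by 2.67 ± 0.39 (IC20) and 2.61 ± 0.39 (IC50), and LGMN by 1.61 ± 0.32 and 1.57 ± 0.32 (adjusted p between 0.0100 and 0.0389). Of 16 sorting genes 2 rose and 1 fell at Maraviroc IC50, and of 30 genes of the TFEB family and of mTORC1 regulation at the lysosome 7 rose and 3 fell; neither list had a call with DZH_2.

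**Figure D3:**
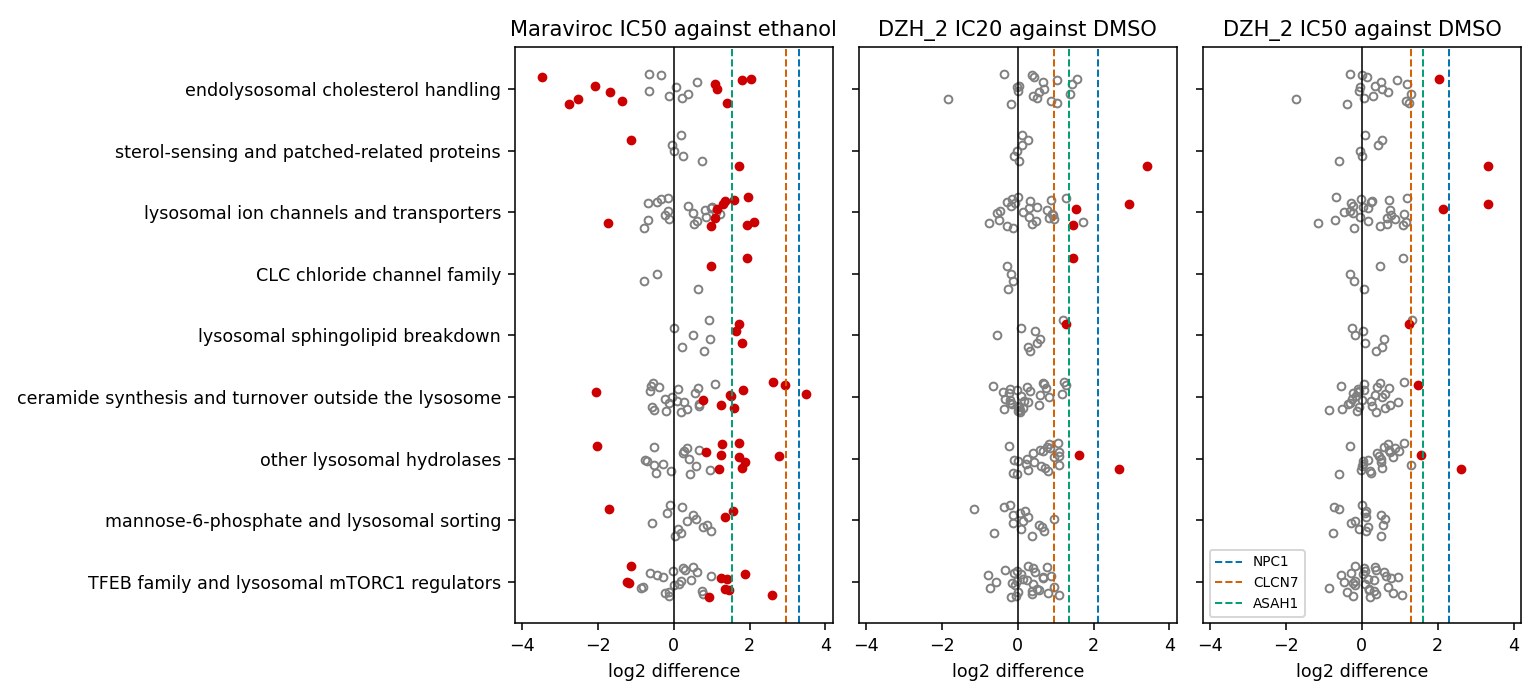
Log2 difference of each measured gene of the 9 lysosomal and ceramide lists, without the 3 members, in 3 comparisons of MDA-MB-231; filled red points passed the limma threshold and dashed lines mark NPC1, CLCN7 and ASAH1. At Maraviroc IC50, 45 of 167 genes rose and 14 fell; with DZH_2, 7 and 8 rose and 0 fell.

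In MCF10, 23 of the 167 listed genes (13.8%) were at least 1 above DMSO at both DZH_2 doses and 2 (1.2%) at least 1 below, where 4.52% and 4.88% of all genes were. On the same arrays 6 of 15 epithelial and basal markers were lower by at least 1 at both doses (S100A2 by -3.54 and -4.04, ITGB4 by -1.32 and -2.24), 0 of 15 were higher, and of 18 mesenchymal markers 1 was lower and 0 were higher; their part in the values of NPC1, CLCN7, ASAH1 and the listed genes was not tested. The median of the 167 listed genes was 0.01 at IC20 and 0.34 at IC50, against 0.02 and 0.01 over all genes. Ranked by the smaller of the 2 dose differences, DHCR7 came first, 4.34 and 5.10 above DMSO, followed by STARD4 (2.46 and 2.33), TMEM97 and SLC37A2 (2.00 and 2.25). On the untreated array these genes stood at 0.26, 1.01, -0.40 and 0.28 relative to DMSO. LAMTOR3 and VPS4B, also among the 23, stood at 1.49 and 1.25 there, so the count depends on the 1 DMSO array. The 2 lower genes were PTCH1 (-2.68 and -1.53) and the mTORC1 regulator DEPDC5 (-1.16 and -1.60), the latter ending under the negative controls. Of the listed genes that rose with DZH_2 in MDA-MB-231 at either dose, DHCR7, STARD4, SLC37A2, CLCN6 and SPHK1 were among the 23. PSAP, SLC17A5 (0.01 and 0.87), CTSD (-1.44 and 0.52) and LGMN (-0.03 and 0.08) were not.

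Finally, the genes with the most similar profiles were sought over the 13 MDA-MB-231 arrays, by the root mean square difference of log2 values after each gene was centred on its own mean. Nearest to NPC1 were TCP11L2 (0.47), the sterol desaturase gene SC5D (0.48), the glucose transporter gene SLC2A3 (0.50) and UGCG (0.53), where the median over all genes was 1.33. Nearest to CLCN7 were the potassium channel gene KCNK1 (0.24), SPHK1 (0.28), COQ10A (0.30) and DMWD (0.30; median 1.12). Nearest to ASAH1 were the carboxypeptidase gene CPVL (0.28), SLC17A5 (0.31), YPEL5 (0.34) and the ceramide synthase gene CERS4 (0.34; median 0.84). Between the members the value was 0.66 for ASAH1 and NPC1, 0.84 for ASAH1 and CLCN7 and 0.94 for CLCN7 and NPC1. The nearest genes were picked as the closest of all genes measured. Their smaller values follow from that search and do not show whether the members share a profile. All these profiles share the same arrays and are dominated by the treated groups.

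**Figure D4:**
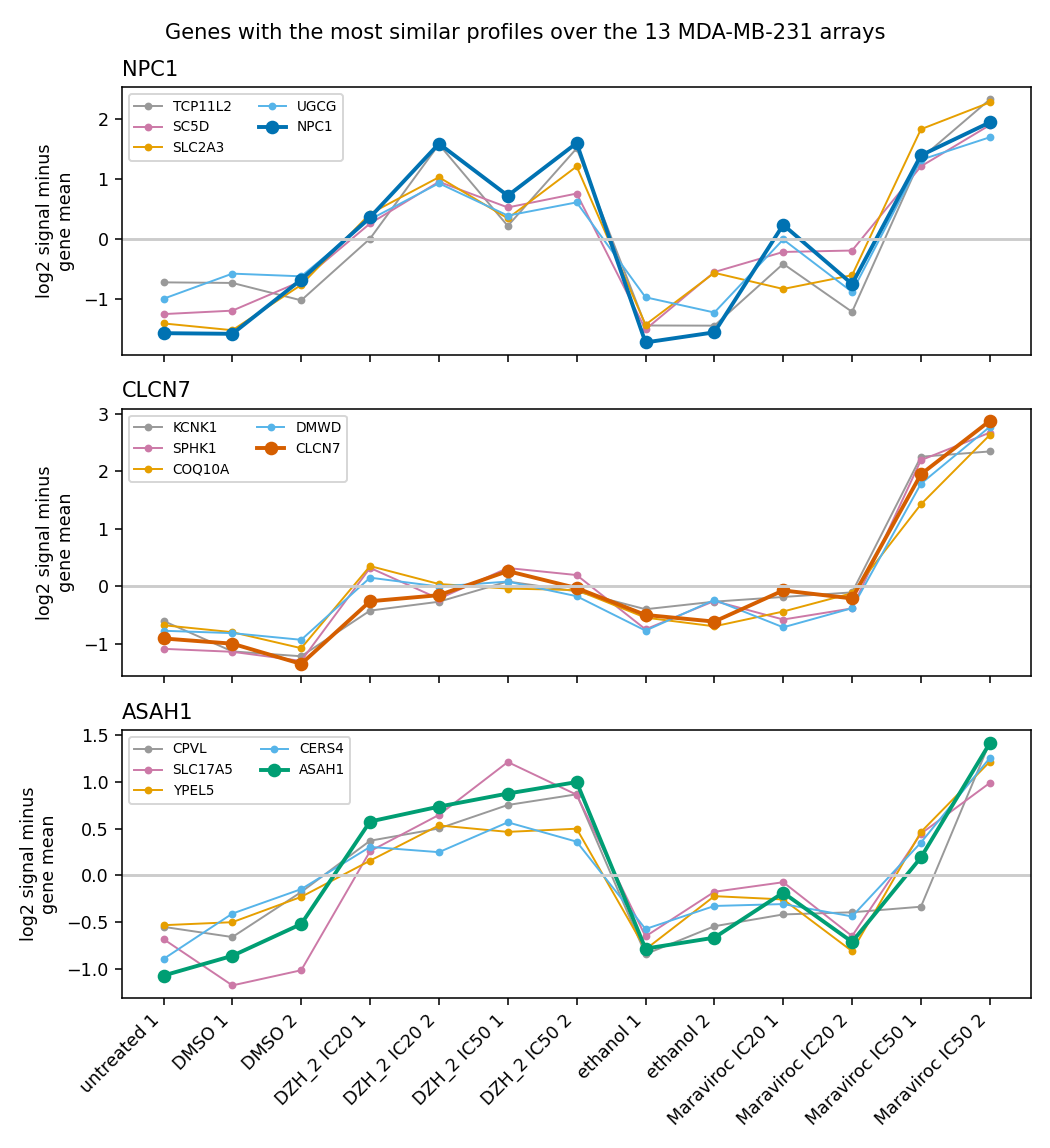
Log2 signal minus the gene's mean for NPC1, CLCN7 and ASAH1 and their 4 nearest genes on the 13 MDA-MB-231 arrays; lines join arrays for reading and mark no order. CLCN7 and its 4 neighbours are highest on the 2 Maraviroc IC50 arrays, with differences from ethanol of 2.63 (KCNK1) to 2.97 (CLCN7).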

How the data were processed

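The authors deposited log2 signals for 24351 probe sets on 17 arrays, prepared with the GeneChip WT PLUS kit from Trizol-extracted total RNA per the labels' protocols; no source used here gives their background correction, normalization or summarisation. Values were used as deposited. Of the probe sets, 17709 had 1 gene symbol (updated by Entrez ID), 3739 named none and 2903 were controls. Where a gene had more than 1 probe set (20 genes), the one of highest mean stood for it, leaving 17687 genes.

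Groups came from the titles. The 12 replicated MDA-MB-231 arrays were fitted together (limma 3.58.1, R 4.3.3; lmFit, contrasts.fit, eBayes, 6 residual degrees of freedom; 2-sided, Benjamini-Hochberg over all genes, adjusted p under 0.05). The fit was tested on simulated data (17687 genes, DZH_2 IC50 and DMSO). It recovered 14% of the changes of log2 size 1, 76.3% of size 2 and 94.9% of size 3. The simulated arrays were independent and had 1 SD per gene in all groups. The measured replicate SD over all genes ran from 0.277 (Maraviroc IC20) to 0.546 (Maraviroc IC50), so these rates may not hold for the real arrays. Precision is limited by how few arrays there are, and single arrays are described by values alone.

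The members and lists were chosen with earlier results of these data known. Named genes are the members, fixed partners, the up to 4 listed genes of smallest p per list and comparison, the 4 nearest profiles per member, and the most changed listed genes in MCF10. Other settings are given at the end.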

Additional observations from a re-analysis of the deposited data

How the results depend on the processing

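Over 27 differences of the 3 members, 378 values were computed under other settings, and 354 counted as unchanged. Among these, values with a p-value kept their direction and their side of the threshold. Values without one moved by less than the SD of the replicates, whatever their sign. The direction was kept in 371 of the 378. NPC1 at DZH_2 IC20 passed without the Maraviroc IC50 arrays (2.11, adjusted p = 0.0300), with array weights (2.11, 0.0243), with the replicate number as a block (2.11, 0.0423) and with all 5 control arrays (2.40, 0.00481); leaving out 1 array gave 1.49 to 2.72. At DZH_2 IC50 leaving out 1 array gave 1.84 to 2.74. CLCN7 at DZH_2 IC50 passed with arrays centred on their median (1.34, adjusted p = 0.0499), and with the compared arrays alone, without the Maraviroc IC50 arrays and with array weights (1.29 each; 0.0278, 0.0123 and 0.0115). At IC20 it passed without the Maraviroc IC50 arrays (0.97, 0.0490). Quantile normalization moved ASAH1 to 1.81 at DZH_2 IC50 against DMSO and 0.43 against DZH_2 IC20. The step of NPC1 between DZH_2 doses ran from -0.43 to 0.80 without 1 array and had no settled direction; it was -0.43 without DZH_2 IC20 replicate 1 and -0.25 without DZH_2 IC50 replicate 2. Between compounds, leaving out 1 array gave 0.11 to 1.34 for NPC1 at IC20, -1.47 to -0.57 for NPC1 at IC50, 0.80 to 1.33 for ASAH1 at IC20, -2.14 to -1.21 for CLCN7 at IC50 and -0.51 to 0.71 for ASAH1 at IC50. The causes were not tested.

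Of the listed genes, rises at DZH_2 IC20 were 14 without the Maraviroc IC50 arrays and with array weights and 11 with all 5 controls, and 0 to 4 without 1 array. At DZH_2 IC50 the rises of listed genes were 18 with the compared arrays alone, 15 without the Maraviroc IC50 arrays and with array weights, and 13 with all 5 controls. All genes called there were 817, 837, 942 and 635, in this order. Rises at both doses were fewer without 1 array of the compared groups, a fit that leaves 1 array in a group. Falls of listed genes were 1 in place of 0 at IC20 with the compared arrays alone, and at both doses with array weights and with all 5 controls. At Maraviroc IC50, 27 rose and 7 fell with the compared arrays alone, and 9 fell with array weights; without 1 array 9 to 19 fell. Over all genes, calls at DZH_2 IC20 (154) ran from 2 without DMSO replicate 2 to 495 without the Maraviroc IC50 arrays, and at DZH_2 IC50 (277) from 2 without DMSO replicate 2 to 942 with array weights; at Maraviroc IC50 (4778) they were 2399 with the compared arrays alone and 2995 without ethanol replicate 1. The replicate block changed no other call of a member. Same-numbered replicates shared only a number: their deviations correlated at -0.15 to 0.30 between groups.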
